A study of Mus musculus with 6 samples.

Results

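The genes of intraflagellar transport (IFT) and of the BBSome were compared between Mgat1 cKO and control germ cells of 23 dpp mice. The genes were taken from a list of 37 names, and 36 of them were measured among the 23152 genes of the arrays. Arl6, which encodes the small GTPase that recruits the BBSome to membranes, was not analysed here, and Ift43 was measured under its older symbol 1700019E19Rik. Each gene value is the mean of the log2 values of the probe sets that carry that gene symbol alone, which were 711 probe sets for the 36 genes and 3 to 78 per gene.

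RNA of testicular germ cells was hybridized to 6 Mouse Gene 2.0 ST arrays. Mgat1 cKO males (Mgat1[F/F]:Stra8-iCre) carry 2 floxed Mgat1 alleles and an iCre recombinase under the Stra8 promoter, which drives expression from the spermatogonial stage on, and gave 3 arrays. Control males (Mgat1[F/F]) carry the same floxed alleles without iCre and gave the other 3 arrays. All mice were FVB, and cells were released from testes of 6 males per genotype by enzymes and were not sorted by stage. The RNA of the 6 males of a genotype was pooled and the 3 arrays carry aliquots of that pool, so each SD and p-value covers the spread between aliquots and not between mice.

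IFT moves building material along the axoneme, the microtubule core of a cilium or flagellum. Trains of IFT-B carry cargo towards the tip with kinesin-2 motors, and IFT-A and the dynein-2 motor serve the way back. The BBSome is an adaptor complex that rides on these trains and removes membrane proteins from cilia, and chaperonin-like BBS proteins help to assemble it. In the testis, the sperm tail begins to grow in round spermatids, and loss of several IFT or BBS genes in male mice stops the tail from forming.

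Of the 36 genes, 1 rose in Mgat1 cKO germ cells, 0 fell and 35 did not pass the test (limma, Benjamini-Hochberg adjusted p under 0.05 over all genes). Bbs5, a BBSome subunit, was the gene that rose. Of all genes, 6.07% were higher and 2.35% lower by the same rule, or 8.41% in either direction. With an intensity trend in the fit, 4 of the 36 genes were higher (Bbs5, Ift43, Bbs12 and Tctn2) and 1 was lower (Ift20), where 7.20% and 5.98% of all genes were so by that fit. At an unadjusted limma p under 0.05, 5 of the 36 genes and 5577 of all 23152 genes differed. Log2 differences (Mgat1 cKO minus control) ran from -0.17 for Ift20 to 0.52 for Bbs5 with a median of -0.02, against a median of -0.05 over all genes. Differences were positive for 14 genes and negative for 22. The 95% interval of the difference lay within 0.5 log2 units of 0, a change of 1.41-fold, for 34 of the 36 genes, as it did for 86.3% of all genes, and the exceptions were Bbs5 and Bbs12. It lay within 1 unit for all 36. Averaged over the 36 genes, the arrays read 8.72, 8.69 and 8.72 in Mgat1 cKO and 8.69, 8.74 and 8.70 in control, so the levels overlapped.

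**Figure D1:**
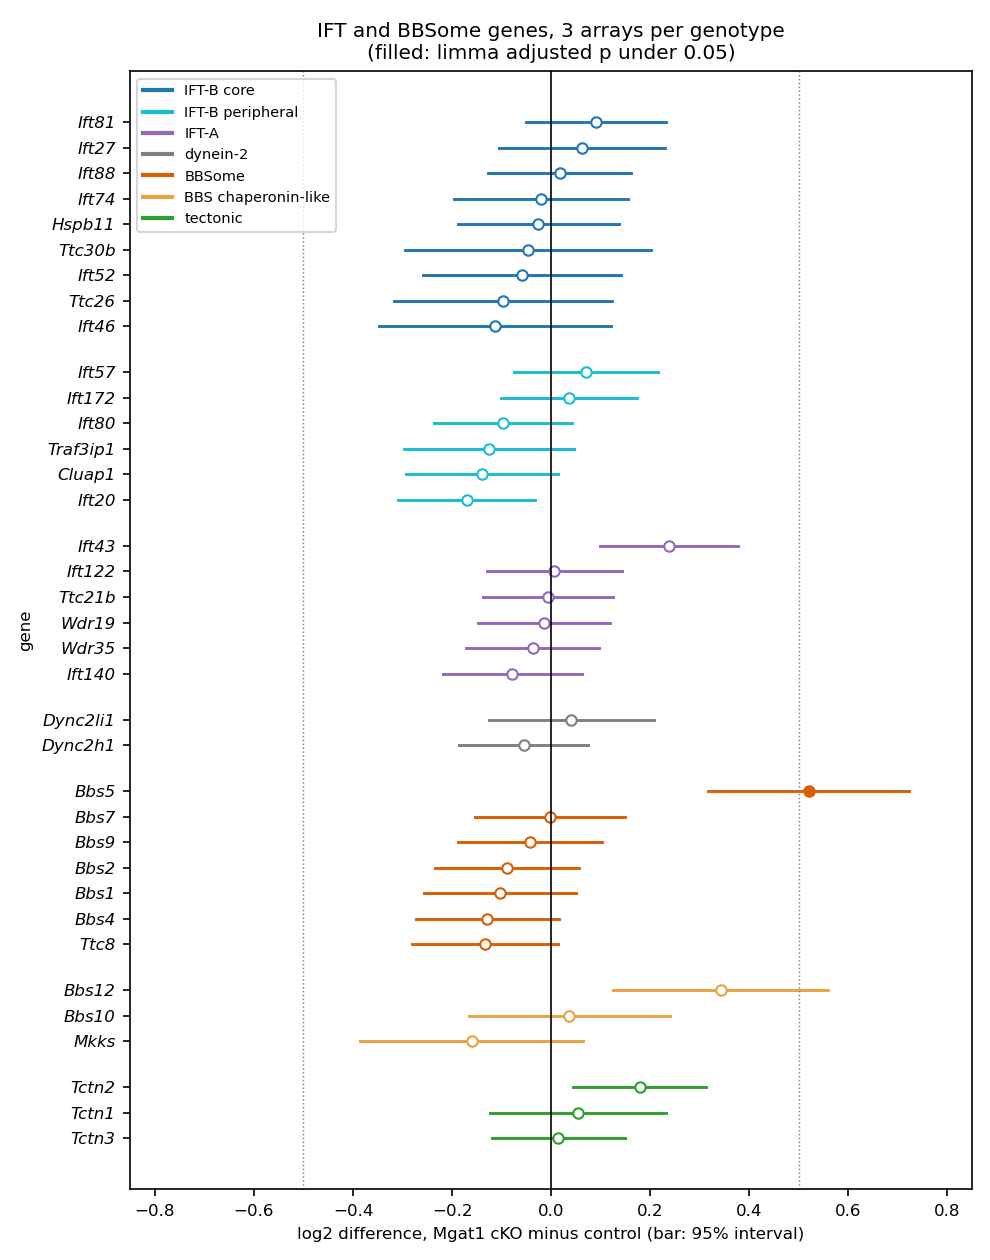
Log2 differences of the 36 IFT and BBSome genes, Mgat1 cKO minus control (x axis), with 95% intervals as bars, by complex (3 arrays per genotype). Bbs5, at 0.52, is the filled point, and dotted lines mark 0.5 log2 units on either side of 0.

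Marker genes of the cell types in the testis differed between the genotypes. The marker lists were chosen with earlier results of these data known, so their counts describe the arrays and are no independent support. All 15 spermatid markers rose, with a median log2 difference of 2.23, and their summed linear level was 6505 to 6681 in Mgat1 cKO and 1350 to 1380 in control arrays. None of 12 spermatocyte markers passed the test (median -0.16, summed level 10150 to 10545 against 10866 to 11457), nor did any of 12 spermatogonium markers (median -0.14, 2028 to 2075 against 2190 to 2304). Markers of cells outside the germ line were still measured, where 2.35% of all genes were lower and 6.07% higher by the same rule. Of these markers, 1 of 10 Sertoli, 3 of 6 Leydig, 4 of 9 peritubular myoid and stroma, 2 of 8 macrophage and 6 of 10 epididymis markers fell, while 0 rose. Their summed levels in Mgat1 cKO and control arrays were 5804 to 5906 and 6298 to 6495 for Sertoli, 2832 to 2910 and 3436 to 3514 for Leydig, 5317 to 5383 and 6083 to 6236 for myoid and stroma, 809 to 817 and 884 to 938 for macrophage, and 769 to 817 and 1010 to 1067 for epididymis markers. Of the 10 epididymis markers, 8 had a negative and 2 a positive difference, with a median of -0.42. Gpx5 (4.34 in Mgat1 cKO and 6.08 in control), Defb47 (6.49 and 7.77) and Defb20 (5.24 and 6.46) fell most. Several epididymis markers read low in both genotypes, such as Cst11 (4.26 in Mgat1 cKO and 4.75 in control) and Spint4 (4.15 and 4.08). Crisp1, the highest of them (8.78 and 8.64), differed by 0.15, and Insl3 of Leydig cells, on 1 probe set, by 0.80, without passing. Whether epididymis cells were present was not tested. Fewer cells of a type and less RNA per cell cannot be told apart in such RNA, and the part of these marker shifts in the values below was not tested. Mgat1 itself, which encodes the transferase that starts complex N-glycan synthesis, averaged 6.30 ± 0.18 in Mgat1 cKO and 6.31 ± 0.13 in control (SD, n = 3 arrays each; limma adjusted p = 0.94), and 1 of its 12 probe sets fell, by 1.01 (adjusted p = 0.0367 over all probe sets). The gene mean of Mgat1 therefore gives no check of the genotype labels, and which of its probe sets lie in the floxed part is not given in the sources used here.

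The promoters were searched for sequences that the list did not use. RFX transcription factors bind the X-box, an inverted repeat found at many ciliary genes, and FOXJ1 acts beside them in cells with motile cilia. Windows from 250 bases before to 50 after the start (RefSeq, GRCm38.p6) were available for 32 of the 37 listed genes and searched on both strands. The X-box with half-sites GTNNCC and GNAAC 3 bases apart lay in 7 of the 32 genes (21.9%), against 2.55% of 17492 genes with such windows, and the form with the half-sites 2 bases apart in 3 of 32 (9.38%), against 1.79%. Either form lay in 9 of the 32 genes (28.1%), against 4.25% of all genes. The 10 matches in these 9 genes are printed because they show what was counted, each along the strand of its gene and with the matched letters in capitals. The motif reads on the printed strand in Bbs4, on the opposite strand in Bbs1, Tctn2, Ift74 and the upstream match of Ift57, and on both strands in the other 5 matches.
Bbs1, chr19:4906605-4906634, minus strand: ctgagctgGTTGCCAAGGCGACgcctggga
Bbs4, chr9:59353464-59353493, minus strand: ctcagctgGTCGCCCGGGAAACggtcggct
Bbs7, chr3:36613489-36613518, minus strand: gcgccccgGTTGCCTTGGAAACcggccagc
Ttc26, chr6:38381483-38381512, plus strand: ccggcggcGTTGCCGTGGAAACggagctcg
Tctn1, chr5:122264411-122264432, minus strand: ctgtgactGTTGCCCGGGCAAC
Tctn2, chr5:124598679-124598708, plus strand: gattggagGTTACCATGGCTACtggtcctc
Ift57, upstream match, chr16:49699199-49699228, plus strand: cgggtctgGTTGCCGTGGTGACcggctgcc
Ift57, downstream match, chr16:49699226-49699254, plus strand: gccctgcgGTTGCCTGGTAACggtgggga
Ift74, chr4:94614478-94614506, plus strand: cggtgaccGTTGCTAGGATACgcggcgtc
Tctn3, chr19:40612351-40612379, minus strand: tcccagcgGTTGCCAGGTAACgggaacca

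Of the 10 matches, 7 began before the start site and 3 (Bbs1, Bbs4 and Tctn1) after it. The 9 genes with an X-box had log2 differences between -0.13 (Bbs4) and 0.18 (Tctn2) with a median of -0.002. Of these 9 genes 0 passed the test, where 8.41% of all genes passed in either direction. The other 22 measured genes with a window ranged from -0.17 (Ift20) to 0.52 (Bbs5), with a median of -0.04, and 1 passed. No test between the genes with and without an X-box was made. Bbs5 held neither full form. Its window, chr2:69646921-69647220 on the plus strand, held near its end the half-site GTTGCC, which began at base 43 of the transcribed part, and the sequence is shown as that of the gene that rose.
Bbs5, chr2:69647205-69647220, plus strand: gccggcgcGTTGCCtt

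That half-site, which also lies inside several of the full matches above, was in 15 of the 32 genes (46.9%) and in 14.3% of all genes. The cAMP response element TGACGTCA, the site of CREM and CREB factors, was in 2 of the 32 (Ift57 and Mkks, 6.25%), against 2.54% of all genes.

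Bbs5 had the largest difference of the BBSome subunits. The BBS5 protein holds domains that bind phosphoinositides of the membrane. Log2 expression of Bbs5 was 8.22, 8.36 and 8.32 in the 3 Mgat1 cKO arrays and 7.63, 7.79 and 7.93 in the 3 control arrays. Bbs5 was higher on each of the Mgat1 cKO arrays than on any control array, which was the case for 5 of the 36 genes and for 11.2% of all genes. The difference was 0.52 (SE 0.09, 95% interval 0.32 to 0.72), or 1.43-fold, with a limma adjusted p of 0.00791. It ranged from 0.45 to 0.59 when each array was left out in turn and passed the test each time. The call was lost in the methods' analysis of variance without moderation (adjusted p = 0.0682).

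Most probe sets of Bbs5 were higher in Mgat1 cKO. Of its 14 probe sets, 13 had a positive difference and 8 had all Mgat1 cKO arrays above all control arrays, with a median difference of 0.55. Probe set 17371439 read 8.10, 8.28 and 8.13 in Mgat1 cKO and 7.27, 7.14 and 7.53 in control, a difference of 0.86 (SE 0.14, limma adjusted p = 0.0423 over all probe sets). Probe set 17371444 read 8.34, 8.27 and 8.48 in Mgat1 cKO and 7.70, 7.59 and 7.70 in control, a difference of 0.70 (SE 0.11, adjusted p = 0.036). These were the 2 probe sets of the 711 that rose, where 1.87% of all probe sets on the arrays were higher by the same rule. Fitting the replicate number as a block raised the adjusted p-values of both above the threshold (0.198 and 0.173), and leaving out 1 array did so in 5 and in 6 of the 6 fits. Genes that flank Bbs5 on chromosome 2 did not pass the test: Lrp2, an endocytic receptor, differed by 0.08 (adjusted p = 0.49), Klhl41 by 0.30 (adjusted p = 0.15) and Fastkd1 by -0.02 (adjusted p = 0.90).

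The other 6 BBSome subunits, which with BBS5 form the adaptor, did not pass the test and were lower on average. Bbs2, whose protein has a beta-propeller domain, read 9.02, 9.03 and 9.07 in Mgat1 cKO and 9.06, 9.20 and 9.13 in control, a difference of -0.09 (adjusted p = 0.42), and the groups overlapped. Bbs4, a subunit of tetratricopeptide repeats, read 8.23, 8.20 and 8.29 in Mgat1 cKO and 8.31, 8.41 and 8.38 in control, a difference of -0.13 (95% interval -0.27 to 0.02, adjusted p = 0.26). All Bbs4 values of Mgat1 cKO lay below those of control. Male mice without Bbs2 or Bbs4 are known to lack sperm flagella. Bbs1, Bbs7, Bbs9 and Ttc8 (BBS8) differed by -0.10, -0.002, -0.04 and -0.13, and Ttc8 also had all Mgat1 cKO arrays below control. The interval of Bbs5 (0.32 to 0.72) did not overlap that of any other BBSome subunit, whose upper ends reached at most 0.15, although this compares single intervals and no test of the difference between genes was made.

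**Figure D2:**
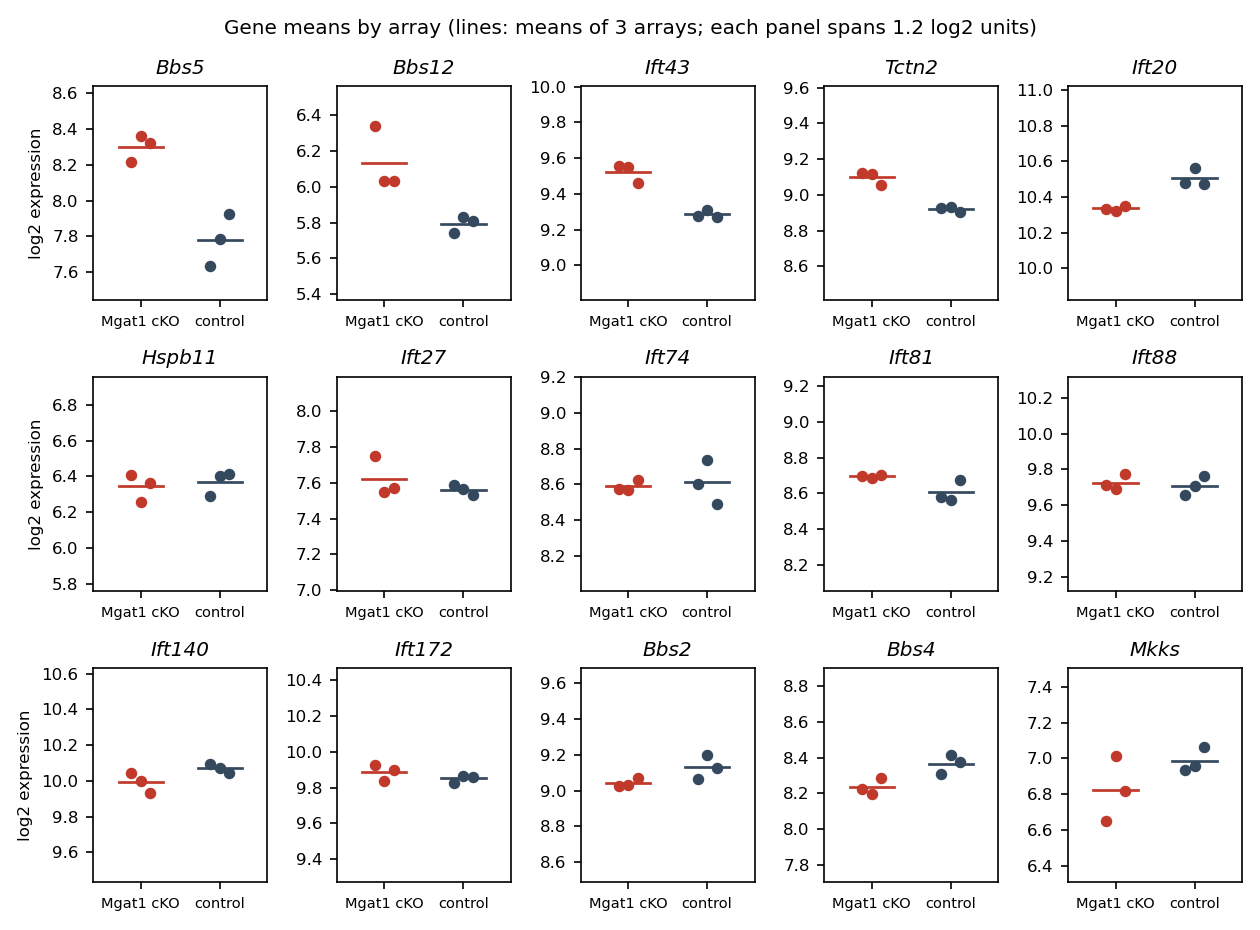
Log2 expression (y axis) of 15 IFT and BBS genes on each array, Mgat1 cKO left of control, with lines at the means of 3 arrays and 1.2 log2 units on every y axis. Bbs5 is separated by 0.52 units, and the values of Hspb11, Ift27, Ift74, Ift88, Ift172, Bbs2 and Mkks overlap between genotypes.

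Bbs12, Bbs10 and Mkks (BBS6) encode the chaperonin-like proteins of BBSome assembly. Bbs12 read 6.34, 6.04 and 6.03 in Mgat1 cKO and 5.74, 5.83 and 5.81 in control. All Mgat1 cKO values were higher and 1 of them stood apart from the others, with a difference of 0.34 (SE 0.09, adjusted p = 0.068). The differences of the 5 probe sets of Bbs12 ranged from -0.02 to 0.96 with a median of 0.27, and 4 of them were positive. When the gene value of each array was the median of its probe set levels in place of the mean, Bbs12 differed by -0.02. Mkks, without which mice are known to lack sperm flagella, read 6.65, 7.01 and 6.82 in Mgat1 cKO and 6.94, 6.96 and 7.07 in control, a difference of -0.16 (SE 0.10, adjusted p = 0.36). The spread among its Mgat1 cKO arrays (SD 0.18) exceeded the difference. Bbs10 differed by 0.04 (adjusted p = 0.83).

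The 9 listed core genes of IFT-B, the complex that binds tubulin and other cargo, had differences from -0.11 (Ift46) to 0.09 (Ift81), with a median of -0.03. None passed the test, and all 9 intervals lay within 0.5 units of 0. Ift81, whose protein binds tubulin together with IFT74, read 8.70, 8.69 and 8.71 in Mgat1 cKO and 8.58, 8.57 and 8.68 in control. These groups did not overlap, yet the difference was 0.09 (adjusted p = 0.41). Ift74 read 8.58, 8.57 and 8.63 in Mgat1 cKO and 8.60, 8.74 and 8.49 in control, and the difference was -0.02 (adjusted p = 0.90). Ift88, a scaffold subunit needed for cilia of many tissues, read 9.71, 9.69 and 9.77 in Mgat1 cKO and 9.66, 9.71 and 9.76 in control. With a difference of 0.02 (95% interval -0.13 to 0.16, adjusted p = 0.89), Ift88 overlapped fully between genotypes.

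Ift27 and Hspb11 (IFT25) encode a pair of IFT-B proteins that link the train to the BBSome. Ift27, a small GTPase, read 7.75, 7.55 and 7.57 in Mgat1 cKO and 7.59, 7.56 and 7.53 in control, a difference of 0.06 (adjusted p = 0.64). Hspb11 read 6.41, 6.26 and 6.36 in Mgat1 cKO and 6.29, 6.40 and 6.41 in control, a difference of -0.03 (adjusted p = 0.85). Both pairs of groups overlapped. Ift46, Ift52, Ttc26 and Ttc30b, the remaining listed core genes, differed by -0.11, -0.06, -0.10 and -0.05.

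Among the 6 peripheral IFT-B genes, which bind kinesin-2, the median difference was -0.11 and none passed the test. Ift20, which sorts ciliary proteins at the Golgi and in spermatids is needed for the tail, read 10.33, 10.32 and 10.35 in Mgat1 cKO and 10.48, 10.56 and 10.47 in control. All Mgat1 cKO values of Ift20 lay below the control values, as for 7 of the 36 genes and 20.1% of all genes. Its difference was -0.17 (SE 0.06, 95% interval -0.31 to -0.03), or 0.888-fold, and did not pass the test over all genes (adjusted p = 0.13). All 9 probe sets of Ift20 were lower in Mgat1 cKO (-0.34 to -0.04). Ift172, whose counterpart in Chlamydomonas serves the turnaround at the flagellar tip, read 9.93, 9.84 and 9.90 in Mgat1 cKO and 9.83, 9.87 and 9.86 in control, a difference of 0.04 (adjusted p = 0.74) with overlapping groups. Ift57, Ift80, Traf3ip1 (IFT54) and Cluap1 (IFT38) differed by 0.07, -0.10, -0.13 and -0.14, and all Mgat1 cKO arrays were below control for Ift80 and Cluap1.

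The 6 IFT-A genes, whose proteins serve return transport and the entry of membrane proteins, had a median difference of -0.01. Ift43 read 9.56, 9.55 and 9.46 in Mgat1 cKO and 9.28, 9.31 and 9.27 in control. No value overlapped, and the difference of 0.24 (SE 0.06, 95% interval 0.10 to 0.38), or 1.18-fold, missed the threshold by little (adjusted p = 0.0502). All 9 of its probe sets were higher in Mgat1 cKO, by 0.07 to 0.34. The call of Ift43 depended on the processing: it passed the test under 6 other settings, with adjusted p-values between 0.00262 and 0.0472, and missed it when any array was left out (0.0638 to 0.152). Ift122, Ttc21b (IFT139), Wdr19 (IFT144) and Wdr35 (IFT121) differed by 0.007, -0.006, -0.01 and -0.04.

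Ift140 encodes an IFT-A subunit that mouse spermatids need for the tail. Its mean lay between 9.934 and 10.043 in Mgat1 cKO and between 10.045 and 10.094 in control, a difference of -0.08 (adjusted p = 0.47). The groups did not overlap, but their nearest values differed by less than the SD of either genotype (0.05 in Mgat1 cKO and 0.02 in control). One of its 29 probe sets, 17334526, read 9.81, 9.57 and 9.79 in Mgat1 cKO and 11.11, 11.20 and 11.16 in control. This was the 1 probe set of the 711 that fell, by 1.43 log2 units (SE 0.11, limma adjusted p = 0.0023 over all probe sets), where 0.18% of all probe sets were lower by the same rule. The other 28 probe sets of Ift140 ranged from -0.47 to 0.29, and the mean over them differed by -0.03. Which exon the probe set reads is not given in the sources used here. Next to Ift140 on chromosome 17, Cramp1l fell by 0.34 (limma adjusted p = 0.0322). Beyond it, Jpt2 and Mapk8ip3 differed by 0.05 and -0.16 (adjusted p = 0.69 and 0.18). On the other side Tmem204 differed by -0.14 (adjusted p = 0.35) and Telo2, the next gene, fell by 0.34 (adjusted p = 0.0282). Ptx4, beyond Telo2, differed by 0.28 (adjusted p = 0.073). By the same rule 2.35% of all genes were lower, and a link of these falls to Ift140 was not tested.

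**Figure D3:**
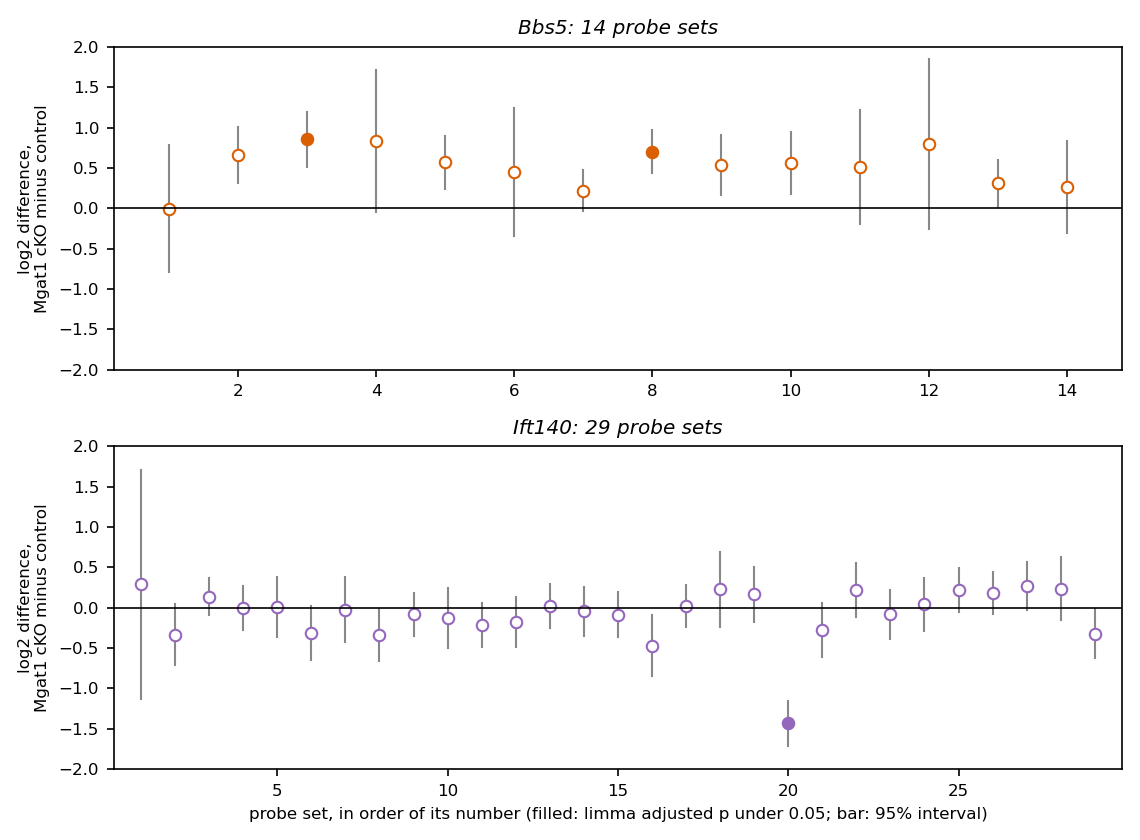
Log2 differences (y axis, Mgat1 cKO minus control, with 95% intervals) of the probe sets of Bbs5 and Ift140 in the order of their numbers (x axis). Of 14 Bbs5 probe sets 13 are above 0, and 1 of 29 Ift140 probe sets lies at -1.43 while the others lie between -0.47 and 0.29.

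Over the 711 probe sets of the 36 genes, 73 (10.3%) had all Mgat1 cKO arrays above control and 63 (8.86%) all below, against 8.66% and 10.8% of all probe sets. Differences over 1 log2 unit were seen in 4 probe sets (0.563%), against 3.49% of all. All 4 were lower in Mgat1 cKO. Besides the Ift140 probe set, they were 2 of Cluap1 (-1.04 and -1.07, adjusted p = 0.30 and 0.0846) and 1 of Ift46 (-1.66, adjusted p = 0.34), which did not pass the test. The Cluap1 probe sets averaged 3.44 and 2.53 in Mgat1 cKO and 4.48 and 3.60 in control. Both read far below the Cluap1 gene mean (7.99 in Mgat1 cKO and 8.13 in control). The Ift46 probe set read 5.84, 3.40 and 4.91 in Mgat1 cKO and 6.14, 6.50 and 6.48 in control, so its Mgat1 cKO arrays spread widely (SD 1.23).

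None of the 2 dynein-2 and 3 tectonic genes passed the test. Dync2h1, the heavy chain of the motor and the gene with 78 probe sets, differed by -0.06 (95% interval -0.19 to 0.08), and Dync2li1, its light intermediate chain, by 0.04 (-0.13 to 0.21). Tectonics sit in the transition zone, the gate at the base of the cilium. Tctn2 read 9.12, 9.12 and 9.05 in Mgat1 cKO and 8.93, 8.93 and 8.90 in control, a difference of 0.18 (SE 0.06, adjusted p = 0.11) with no overlap. Of its 18 probe sets, 16 were higher in Mgat1 cKO. Tctn1 and Tctn3 differed by 0.05 and 0.01 with overlapping groups.

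Genes of the same machinery outside the list were compared next. Together, 7 lists (other IFT and BBSome subunits, kinesin-2, other dynein-2 chains, transition zone, basal body appendages, cargo adaptors and small GTPases, and RFX and FOXJ1 factors) held 64 measured genes. Of these, 6 rose, 0 fell and 58 did not pass the test, and the median difference was -0.01. By the same rule 6.07% of all genes were higher and 2.35% lower. None of 14 transition zone, 9 basal body, 15 cargo adaptor and 8 other dynein-2 genes passed, with medians of -0.02, -0.02, -0.03 and -0.03.

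Kif17, a kinesin-2 motor that in mouse testis is also known as a partner of the CREM coactivator ACT in round spermatids, rose most. It read 7.47, 7.35 and 7.53 in Mgat1 cKO and 5.80, 6.05 and 5.93 in control. The groups were far apart, with a difference of 1.52 (SE 0.08), or 2.87-fold (limma adjusted p = 8.2e-06). All 20 of its probe sets were higher in Mgat1 cKO (0.14 to 3.09), and 11 of them passed the test. The Kif17 window held a cAMP response element and an X-box with half-sites 2 bases apart, which began 86 and 73 bases before the start. Of other pathway and tail genes, Dnah6 (-0.04) held the cAMP response element and did not pass the test. With the same X-box form, Tekt2 (0.65) and Rsph14 (0.32) rose. Sclt1 (0.27), Ccdc65 (0.23), Dynlrb2 (0.15), Mns1 (0.09), Ropn1l (0.07), Dnah9 (-0.03), Ccdc103 (-0.06) and Rsph3b (-0.11) held that form and did not pass. In pathway and tail genes, the form with half-sites 3 bases apart lay in Tekt4 (0.77), which rose. The other measured genes with it did not pass, from Spag16 (-0.21) to Hydin (0.12). Whether the motifs bear on the rise of Kif17 was not tested. Both Kif17 motifs are shown for comparison with the IFT promoters above, and the printed stretches overlap.
Kif17, cAMP response element, chr4:138262157-138262180, plus strand: ccgtcctgTGACGTCAcggaggtt
Kif17, X-box, chr4:138262170-138262198, plus strand: tcacggagGTTGCCCAGCAACggcgaacg

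Kifap3, which joins the heterotrimeric kinesin-2 to its cargo, read 8.99, 8.91 and 8.93 in Mgat1 cKO and 8.43, 8.50 and 8.49 in control, a difference of 0.47 (SE 0.06, adjusted p = 0.00161). The motor chains of that kinesin did not pass the test, at 0.002 for Kif3a, 0.09 for Kif3b and -0.14 for Kif3c. Ttc21a, a relative of the IFT-A gene Ttc21b whose loss impairs sperm tails in mice, rose by 0.43 (SE 0.07, adjusted p = 0.00627). It read 8.93, 8.75 and 8.76 in Mgat1 cKO and 8.41, 8.37 and 8.36 in control, and 15 of its 21 probe sets did not overlap between genotypes. The other 6 subunits of that list, among them Ift22 (0.007) and Bbip1 (-0.02), did not pass the test. With the median over probe sets in place of the mean, Ttc21a no longer passed (adjusted p = 0.0795).

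Of 6 transcription factor genes of the X-box and FOXJ1 programme, 3 rose, where 6.07% of all genes were higher by the same rule. Foxj1 read 6.88, 6.88 and 6.92 in Mgat1 cKO and 6.04, 6.00 and 5.94 in control, a difference of 0.90 (SE 0.06, adjusted p = 2.43e-05), or 1.87-fold. Rfx1 read 8.02, 7.89 and 7.99 in Mgat1 cKO and 7.36, 7.15 and 7.41 in control, a difference of 0.66 (SE 0.08, adjusted p = 0.00155). Rfx3 read 7.47, 7.43 and 7.33 in Mgat1 cKO and 7.001, 6.908 and 7.075 in control, a difference of 0.41 (SE 0.07, adjusted p = 0.00923). Of the 6 genes, 5 had all Mgat1 cKO arrays above all control arrays and 1 (Rfx7) below, against 11.2% and 20.1% of all genes. Rfx3 did not pass with the median over its probe sets (limma adjusted p = 0.252). Rfx2, known in mice to be required for spermatid maturation, differed by 0.08 (adjusted p = 0.42), Rfx4 by 0.09 (adjusted p = 0.41) and Rfx7 by -0.18 (adjusted p = 0.16).

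Genes of other parts of the tail were counted by list. Of 42 measured genes of axonemal dyneins, their assembly factors, radial spokes and other axonemal parts (such as Hydin and Drc1), 4 rose and 0 fell. The median was 0.04, and 6.07% of all genes were higher and 2.35% lower by this rule. The 4 genes were Armc4 (0.42, adjusted p = 0.00374) and Dnaaf3 (0.41, adjusted p = 0.00619), which serve dynein docking and assembly, Nme8 (0.34, adjusted p = 0.00759) and Rsph14 (0.32, adjusted p = 0.012). The count of genes past the test in either direction was 1 with the median over probe sets and 11 with an intensity trend. Of 18 genes of outer dense fibres, fibrous sheath and tektins, 13 rose and 0 fell, with a median of 1.66. Smcp, of the mitochondrial sheath, rose by 3.25, Gapdhs, the glycolytic enzyme bound to the fibrous sheath, by 2.99, Ropn1 by 2.65 and Fscb by 2.56, with limma adjusted p-values under 0.05 in each case. Of these 18 genes, 4 are also among the 15 spermatid markers. No test of these lists against one another or against the 36 IFT and BBSome genes was made.

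**Figure D4:**
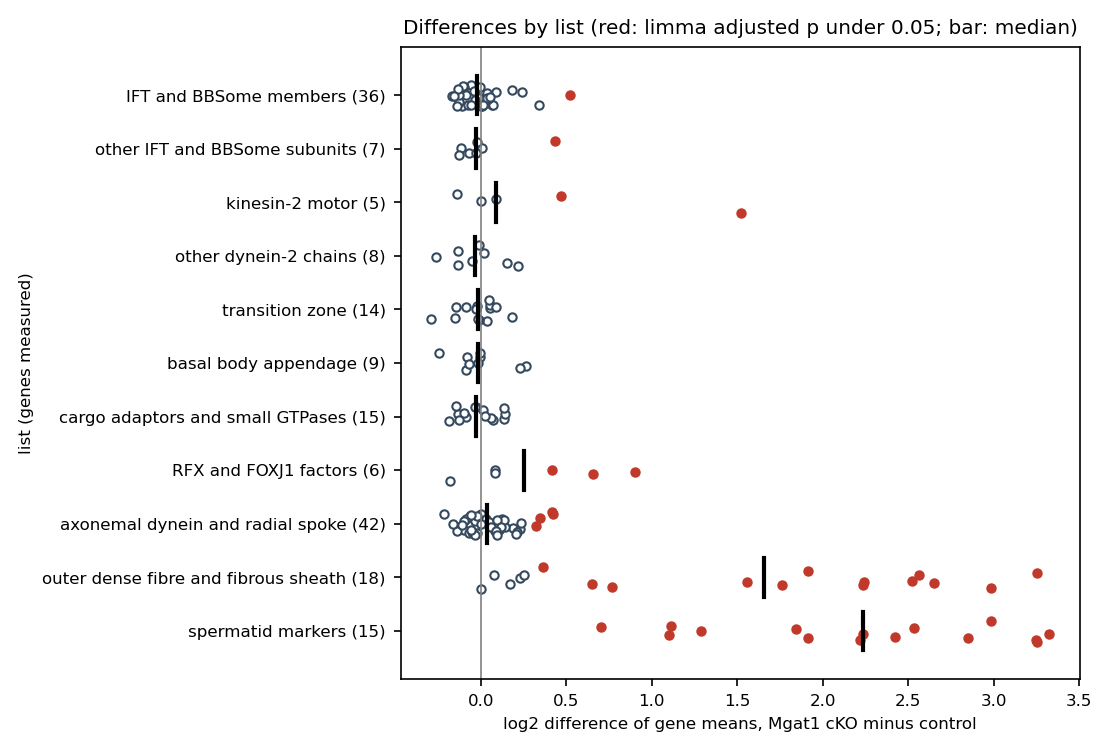
Log2 differences of gene means (x axis, Mgat1 cKO minus control) for the genes of 11 lists (rows, with the genes measured), red where the limma adjusted p was under 0.05 and with bars at the medians. The 36 IFT and BBSome genes lie between -0.17 and 0.52. The medians are 1.66 for the list of outer dense fibre, fibrous sheath and tektin genes and 2.23 for spermatid genes.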

How the data were processed

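The deposited table held log2 values that the authors made by RMA in Affymetrix Expression Console (version not given in the sources used here), at the level of exon probe sets, and was used as it stands. Among 269751 probe sets, 233753 had a single gene symbol, 5139 more than 1 and 30859 no symbol. Those with a single symbol were averaged per gene (23152 genes, median 8 probe sets). Genotypes were compared with limma 3.58.1 in R 4.3.3 (lmFit and eBayes, two-sided, Benjamini-Hochberg over all genes or all probe sets), tested beforehand on simulated data. Limma replaced the methods' analysis of variance because 3 arrays per genotype leave few degrees of freedom. Arrays have no sequencing depth, and their number limits precision. Array medians were 6.85 to 6.87. Correlations of deviations from group means between arrays with the same replicate number were -0.03, -0.07 and -0.05, so the numbers do not pair the arrays.

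Members and lists were chosen with earlier results of these data known. Per-array values are given for members past the test, the 3 largest others and 11 genes known for sperm tail defects, and for pathway genes past the test (at most 4 per list), except that axonemal and tail genes are given by their differences. Flanking genes, the remaining kinesin-2 and RFX genes, Ift22, Bbip1 and probe sets over 1 log2 unit were chosen after their values were seen. Promoter windows and gene order came from RefSeq (GRCm38.p6). Figures used Python 3.11.15 and matplotlib 3.10.9. Alternatives are given at the end.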

Additional observations from a re-analysis of the deposited data

Results flagged for a closer look

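Probe set 17328114 carried 2 gene symbols, Prm2 and Wdr19, and so entered no gene mean. It read 9.89, 10.12 and 9.90 in Mgat1 cKO and 7.95, 7.98 and 7.65 in control, a log2 difference of 2.11 (SE 0.14, limma adjusted p = 0.00119 over all probe sets). It is given here because it is a signal under the name of an IFT-A gene in values that the comparison did not use. The 32 probe sets with the symbol Wdr19 alone ranged from -0.36 to 0.68, and Prm2, protamine 2, rose by 1.84 on its own probe sets. The array annotation does not say which of the 2 genes this probe set reads. The 3 probe sets shared by Hvcn1 and Tctn1 did not pass the test (-0.26, -0.15 and -0.21).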

How the results depend on the processing

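The gene that rose, Bbs5, passed the test in each of the 6 leave-one-out fits and in 7 of 8 refits with another model or summary, the exception being the methods' analysis of variance (adjusted p = 0.0682). The number of the 36 genes that were higher, 1 in the reported fit, was 2 in the analysis of variance (Ift43 and Tctn2), 4 with an intensity trend (Bbs5, Ift43, Bbs12 and Tctn2), 2 without dim probe sets, 2 with arrays centred on their medians, 2 with quantile normalization repeated and 2 with probe sets of several symbols added (Bbs5 and Ift43 in these 4), and 0 when a 1.5-fold or a 2-fold change was also required. The number lower was 0, except 1 (Ift20) with the intensity trend. Without each array in turn these counts stayed at 1 to 1 higher and 0 to 0 lower. The median difference lay between -0.02 and -0.01 under the other settings and between -0.03 and -0.01 when each array was left out. Of member probe sets, 0 were higher with the replicate block and 6 lower with the intensity trend, and 0 to 1 were higher and 1 to 1 lower without each array. Over all genes, 1148 to 1228 were higher and 181 to 324 lower without each array, against 1405 and 543 with all 6. The lower count was 1385 with the intensity trend, 208 with the replicate block and 135 with the median of probe sets, and with 1.5-fold and 2-fold changes required 929 and 586 were higher and 33 and 8 lower. The replicate block kept Bbs5 (adjusted p = 0.0111) and changed no other call of a named member. Differences that had not passed changed sign: with the median of probe sets Bbs12 (-0.0183), Ift27 (-0.0174) and Ift81 (-0.0194), without dim probe sets Ift74 (0.00242), and across the leave-one-out fits Ift27 (-0.000404 to 0.100), Hspb11 (-0.0655 to 0.0170), Ift88 (-0.00862 to 0.0434) and Ift74 (-0.0797 to 0.0428). Ttc21a, Rfx3, Armc4, Nme8 and Rsph14 no longer passed with the median of probe sets (adjusted p = 0.0795, 0.252, 0.0639, 0.0543 and 0.109), and Rsph14 was also lost with the replicate block (0.0538), without dim probe sets (0.0794) and without control array 1 or 2. The calls of the Bbs5 probe sets were lost in 5 (17371439) and 6 (17371444) of the 6 fits that left out 1 array, while that of the Ift140 probe set was kept in all 6. Leaving out that probe set, an alternative chosen after seeing the data, changed the Ift140 difference to -0.03 (adjusted p = 0.80). What made these values change was not tested. All values rest on 1 RNA pool per genotype.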
